A study of Mus musculus with 81 samples.

Results

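RBPJ binding was mapped in a hybridoma line of mature mouse T cells by chromatin immunoprecipitation sequencing (ChIP-seq), which recovers DNA fragments bound by a protein or a modified histone. The regions described here are RBPJ regions that carry H3K4me3 and that were listed in control cells but not in cells with the Notch1 intracellular domain. They were selected on the measured regions of 3 deposited lists. A region of the control RBPJ list was taken where it shared at least 1 bp with an H3K4me3 region and no base with any region of the BioNICD1 RBPJ list. This gave 559 of the 1752 control-list regions (31.9%), and 559 of the 1706 with H3K4me3 (32.8%, 95% Wilson interval 30.6 to 35.0%). Of the other regions with H3K4me3, 1147 control-list regions were shared with the BioNICD1 list, and 2321 regions were in the BioNICD1 list only.

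RBPJ is the DNA-binding factor of the Notch pathway. When a ligand binds a Notch receptor, the receptor is cleaved and its intracellular domain (NICD) moves to the nucleus, where it joins RBPJ and recruits coactivators to target genes. Without NICD, RBPJ can bring corepressors to its sites. Trimethylation of histone H3 at lysine 4 (H3K4me3) marks active or poised promoters, monomethylation of the same residue (H3K4me1) is typical of enhancers and of promoter flanks, and acetylation of lysine 27 (H3K27ac) marks active elements of either kind. ATAC-seq maps accessible DNA by where a transposase can insert.

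The control RBPJ list is named for Control_sgRbpj, the control line of a CRISPR experiment against Rbpj, for which the series holds 3 RBPJ libraries and an input. The BioNICD1 list is named for cells that carry BioNICD1_WT, a biotin-tagged wild-type NICD1, with 2 RBPJ libraries and an input. The vector control of that experiment, Biocontrol, and the variant BioNICD1_DEP were not analysed here. The ATAC list is named for the control line, which has 3 ATAC libraries. The H3K4me3, H3K27ac and H3K4me1 lists name no line. The series holds each of these marks in 2 libraries of the control line and 2 of the RBPJ-depleted line sgRbpj_2-12, so a histone list may draw on both. The line is 1 hybridoma, and whether its replicates were separate cultures is not stated. The lists hold positions only: their score is 0 throughout, they name no replicate, and their depth is unknown. Binding strength, spread between replicates and tests between conditions could therefore not be had. Every comparison below is a description, and its 95% intervals cover counting of regions only. A region missing from the BioNICD1 list is one that was not listed, which does not show that RBPJ was absent. The NICD1 construct, the experiment and the number of libraries differ together between the RBPJ lists and cannot be told apart.

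The identity of the cells was checked in 18 RNA libraries of 2377028 to 10113741 counts. Summed CPM (counts relative to the total of the library) of 10 T cell markers ran from 1494 to 3875, while 5 myeloid markers summed to 8.40 to 58.9, 3 erythroid markers to 0 to 13.3 and 4 fibroblast markers to 0 to 1.04. The T cell sum, with a median of 3297, was mostly Ptprc, with a median of 2080 CPM. Ptprc is expressed across leukocytes, so its share of the sum does not set T cells apart from other leukocytes. Trat1 had a median of 0.635 CPM, and the other T cell markers had medians of 11.7 to 329 CPM. Cd22, an inhibitory receptor best known from B cells, ran from 0 to 229 CPM with a median of 0.667, and is named here after its values were seen. Rbpj itself was at 170 and 134 CPM in the Control_sgRbpj libraries. It was at 44.2 and 32.2 CPM in sgRbpj_2-12 and at 59.7 and 42.7 CPM in sgRbpj_2-14, all below both control libraries. With BioNICD1 in control cells Rbpj was at 81.6, 88.2 and 94.2 CPM, against 86.2, 85.8 and 93.9 CPM with Biocontrol. The ranges of these groups overlapped. In depleted cells Rbpj was at 21.3, 21.3 and 17.9 CPM with Biocontrol and at 19.3, 23.1 and 28.6 CPM with BioNICD1.

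The control-list-only regions lay in accessible, acetylated chromatin. Of the 559 regions, 557 (99.6%, 98.7 to 99.9%) shared at least 1 bp with an ATAC region and 540 (96.6%, 94.8 to 97.8%) with an H3K27ac region. Only 88 (15.7%, 13.0 to 19.0%) touched an H3K4me1 region. The most frequent state, held by 463 regions (82.8%), was ATAC and H3K27ac without H3K4me1, and a further 77 (13.8%) held all of these marks. Another 8 regions had ATAC alone and 9 had ATAC with H3K4me1, and 2 had H3K4me1 without ATAC or H3K27ac. H3K4me3 was part of the rule, so each of them met a region of that list.

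**Figure D1:**
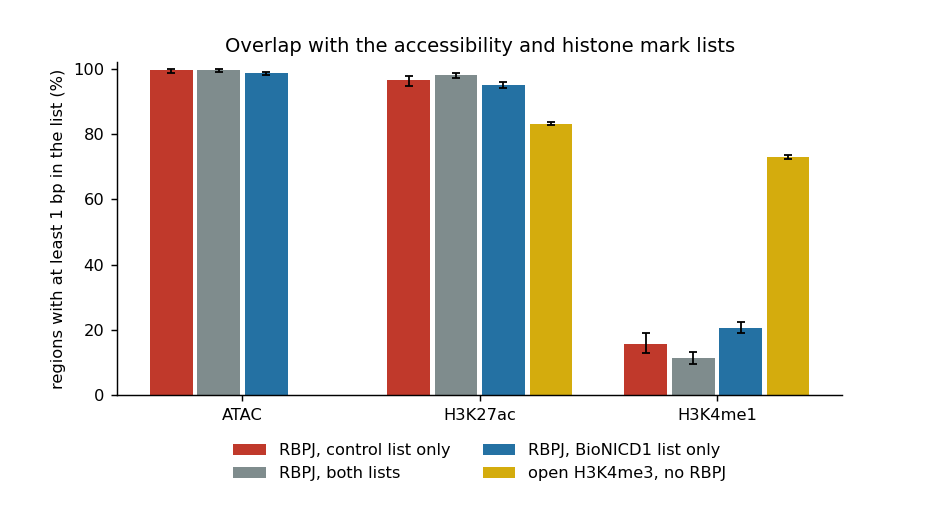
Share of regions with at least 1 bp in the ATAC, H3K27ac or H3K4me1 list (y axis, %), for the 3 sets of RBPJ regions in H3K4me3 and for ATAC regions in H3K4me3 without an RBPJ region; bars are shares and error bars 95% Wilson intervals. The no-RBPJ set has no ATAC bar because it was defined by ATAC; its H3K4me1 bar stands at 73.0%, against 15.7% for the control-list-only regions, which are shorter than the ATAC regions.

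The shares differed little from those of the regions in both lists and more from those of open promoter-type chromatin without RBPJ. H3K27ac covered part of 98.1% of the 1147 regions in both lists (97.1 to 98.7%) and of 95.2% of the 2321 BioNICD1-list-only regions (94.2 to 96.0%). The interval of the control-list-only regions overlapped each of these. Among 23648 ATAC regions in H3K4me3 without any RBPJ region, 83.3% touched H3K27ac (82.8 to 83.7%), below the control-list-only interval. These ATAC regions were shorter than those that held control-list-only regions, with medians of 816 and 1302 bp. By length class of the ATAC region, shares follow first with a control-list-only region and then without RBPJ. From 500 to under 1000 bp they were 90.9% (83.1 to 95.3%) and 79.3% (78.6 to 80.1%), at median lengths of 888.5 and 727 bp. From 1000 to under 1500 bp they were 99.6% (98.0 to 99.9%) and 95.1% (94.6 to 95.6%). From 1500 to under 2000 bp they were 100% (96.9 to 100%) and 98.6% (97.9 to 99.0%), with intervals that overlapped. At the central 200 bp the intervals overlapped in every class. H3K4me1 was touched by 11.4% of the regions in both lists (9.71 to 13.4%), by 20.6% of the BioNICD1-list-only regions (19.0 to 22.3%) and by 73.0% of the open regions without RBPJ (72.4 to 73.5%). The control-list-only share of 15.7% lay between the other RBPJ sets. Its interval overlapped that of the regions in both lists at its lower end, and at its upper end stopped where that of the BioNICD1-list-only regions began, near 19.0%. The BioNICD1-list-only regions were shorter, so 200 bp around each centre were also taken. There H3K4me1 was touched by 6.98% of the control-list-only regions (5.15 to 9.40%) and 5.41% of those in both lists (4.24 to 6.87%). For BioNICD1-list-only regions it was 15.4% (14.0 to 16.9%), above the control-list-only interval. The sets without and with RBPJ are regions of different assays, ATAC and ChIP, with different lengths. For H3K4me1 the same question was therefore asked again over ATAC regions of like length, after the profiles.

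The marks were layered by distance from the centre of the control-list-only regions. ATAC regions covered 99.3% of the centres and 17.2% of positions 1 kb away. H3K4me3 covered 84.4% of the centres and reached its highest value, 90.7%, at 300 bp from them, as the mean of both sides. H3K27ac dipped in the same way, with 72.1% at the centre and 82.3% at 300 bp. H3K4me1 showed the reverse pattern: it covered 4.29% of the centres, and its highest value, 44.5%, came at 1400 bp. In the regions of both lists the H3K27ac shoulder was higher, at 89.5%, and H3K4me1 covered 3.05% of the centres with a highest value of 42.9% at 1100 bp. The BioNICD1-list-only regions had H3K4me1 over 10.5% of their centres. In open H3K4me3 chromatin without RBPJ there was no such shoulder of H3K27ac, which was highest at the centre (74.7%), and H3K4me1 was highest at 500 bp (52.3%). That set was centred on its ATAC regions and the others on their RBPJ regions. Its ATAC regions were also shorter, so these profiles are not matched and do not tie the shoulder to RBPJ.

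**Figure D2:**
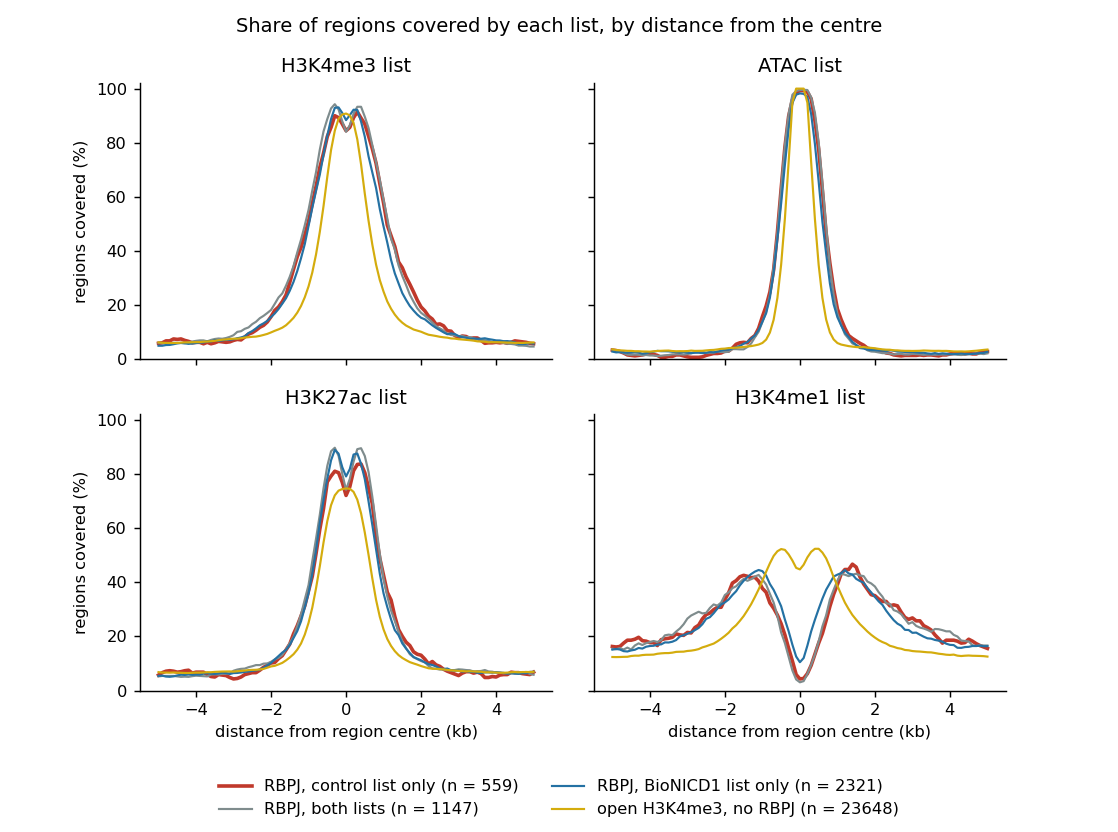
Share of regions covered by a region of the H3K4me3, ATAC, H3K27ac or H3K4me1 list (y axis, %) at each distance from the region centre (x axis, kb), for the 4 sets named in the key; positions are ordered by chromosome coordinate, not by the direction of a gene. The control-list-only line has an H3K4me1 trough of 4.29% at the centre and dips in H3K4me3 and H3K27ac there. Centres are those of RBPJ regions, or of ATAC regions for the set without RBPJ.

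H3K4me1 lay near most of the control-list-only regions although few touched it, as it did in the sets they were compared with. Within 2 kb of the region, an H3K4me1 region was found for 540 of 559 (96.6%). It was on both sides of 356 regions (63.7%), on 1 side of 182 (32.6%) and on neither side of 21 (3.76%). H3K4me1 was within 2 kb of 96.8% of the regions in both lists and 96.4% of the BioNICD1-list-only regions, both inside the control-list-only interval of 94.8 to 97.8%. It was within 2 kb of 90.8% of open H3K4me3 regions without RBPJ, below that interval. The share with H3K4me1 on both sides was 65.3% for the regions in both lists, within the control-list-only interval of 59.6 to 67.6%. It was 69.0% for the BioNICD1-list-only regions and 68.5% for open chromatin without RBPJ, both above that interval.

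The H3K4me1 contrast with open regions without RBPJ was smaller when whole ATAC regions were compared. At the centres of the ATAC regions it was larger than over the whole ATAC regions. Each ATAC region in H3K4me3 was assigned to the RBPJ set it held, leaving out 39 that held more than 1 set, and was compared with the H3K4me1 list. Over the whole ATAC region, H3K4me1 was touched by 52.8% of 536 that held a control-list-only region (48.6 to 57.0%) and by 73.0% of those without RBPJ. Among ATAC regions of 1000 to under 1500 bp these shares were 47.7% (42.0 to 53.5%) and 70.7% (69.5 to 71.8%). The central 200 bp were then taken alone. In the same length class, the centre touched H3K4me1 in 7 of 285 that held a control-list-only region (2.46%, 1.19 to 4.98%). The share was 3.91% in 640 that held a region of both lists (2.66 to 5.70%), 10.4% in 1154 with a BioNICD1-list-only region (8.77 to 12.3%) and 35.1% in 5954 without RBPJ (33.9 to 36.3%). Among longer ATAC regions, from 1500 to under 2000 bp, it was 1 of 122 (0.820%, 0.145 to 4.50%) with a control-list-only region and 22.2% of 1692 without RBPJ. Among those of 500 to under 1000 bp it was 18 of 88 (20.5%, 13.3 to 30.0%) and 61.6% of 11902. Median lengths in that class were 888.5 and 727 bp, so length was only partly matched there. At each of these lengths the control-list-only interval for the centre lay below that of open regions without RBPJ and overlapped that of regions in both lists. Against the BioNICD1-list-only regions the intervals overlapped in the shortest class, where those regions stood at 29.3% (25.4 to 33.5%), and were apart in the others, narrowly so in the longest (6.70%, 4.73 to 9.40%).

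**Figure D3:**
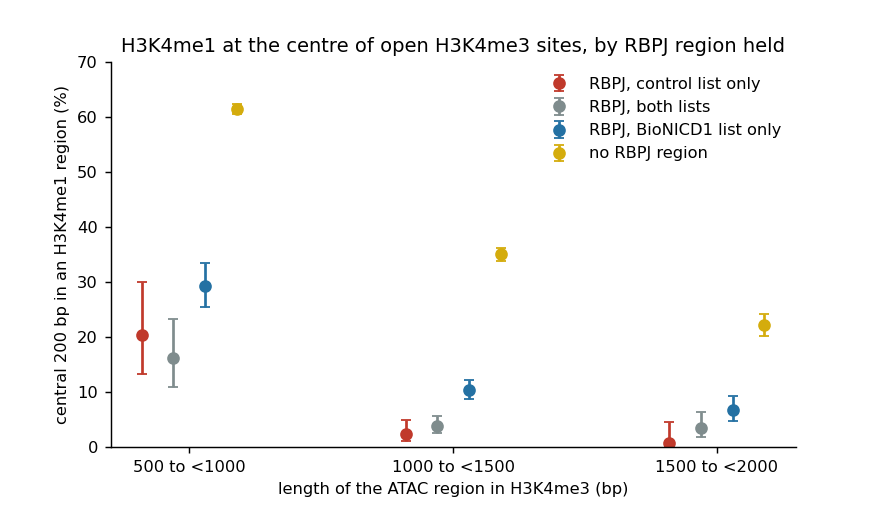
Share of ATAC regions in H3K4me3 whose central 200 bp touch an H3K4me1 region (y axis, %), by length of the ATAC region (x axis, bp) and by the RBPJ region it holds; points are shares and bars 95% Wilson intervals. In each length class the red points (control list only) lie below the yellow points (no RBPJ region), for example at 2.46% against 35.1% in the middle class.

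The control-list-only regions were short and lay inside long marked domains. Their median length was 459 bp (95% interval of the median 445 to 490), with a range of 162 to 6175 bp and 10 regions of 1 kb or longer. Regions in both lists had a median of 467 bp (453 to 483), and BioNICD1-list-only regions, which come from the other list, one of 318 bp. The H3K4me3 regions that held control-list-only regions had a median length of 2005 bp (1934 to 2107), against 2068 bp (2000 to 2111) for regions of both lists and 1009 bp for all 42879 H3K4me3 regions. Since a longer H3K4me3 region is met more often, the last difference is partly set by the rule. Of the 559 regions, 23 lay in an H3K4me3 region of 5 kb or more and 12 in one under 500 bp. In all, 615 H3K4me3 regions (1.43%) held at least part of one.

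Most of these regions lay wholly within H3K4me3 and ATAC, but a minority bridged a gap in H3K4me3. Of the 559 regions, 404 (72.3%) were wholly inside H3K4me3, while 71 (12.7%) had less than 50% of their bases in it. A gap between 2 H3K4me3 regions was bridged by 58 (10.4%, 8.11 to 13.2%). Its median width was 260.5 bp (241 to 276), with a range of 138 to 606 bp. The share was 11.7% for regions of both lists, within that interval, and 4.18% for BioNICD1-list-only regions, below it. A region must be longer than a gap to bridge it. The BioNICD1-list-only regions were shorter, with a median of 318 bp against 459 bp, and these shares were not matched for length. H3K27ac was split in the same way under 73 regions (13.1%). Against the accessible site, 530 regions (94.8%) lay wholly inside ATAC. The ATAC regions had a median length of 1302 bp (1275 to 1347), and the centre of the RBPJ region was at a median of 141.5 bp (126 to 155) from theirs, with 209 (37.4%) within 100 bp. These positions were close to those of the regions in both lists, where the medians were 1326 bp (1303 to 1346) and 144 bp (134 to 154).

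The share of control-list regions that were missing from the BioNICD1 list was alike across the lengths of the regions and of their marks. By quartile of RBPJ region length, from shortest to longest, the control-list-only share of all control-list regions with H3K4me3 was 33.5, 33.0, 31.6 and 32.9%. By quartile of ATAC length it was 34.8, 32.2, 29.9 and 34.1%, and by quartile of H3K4me3 length 36.3, 32.2, 32.9 and 29.7%. The 95% interval of every quartile held the whole share of 32.8%. Of the 219 control-list regions that touched H3K4me1, 88 were control-list-only (40.2%, 33.9 to 46.8%), against 471 of 1487 that did not (31.7%, 29.4 to 34.1%); these intervals overlapped narrowly. Among the 41 control-list regions outside H3K27ac, 19 were control-list-only (46.3%, 32.1 to 61.3%), against 32.4% (30.2 to 34.7%) of the 1665 inside it, and the small number left a wide interval.

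The 19 control-list-only regions without H3K27ac were shorter than the rest and lay in shorter H3K4me3 regions. Their median length was 230 bp, against 474 bp for the 540 inside H3K27ac. Their H3K4me3 regions had a median length of 700 bp, from 208 to 4197 bp, and 11 of the 19 touched H3K4me1. Those inside H3K27ac had a median H3K4me3 length of 2025.5 bp, and 77 of 540 touched H3K4me1. The 88 regions that touched H3K4me1 also had shorter H3K4me3 regions than the 471 that did not, with medians of 1459.5 and 2090 bp. The 2 regions outside ATAC were chr14:96750481-96750685 and chr4:135125260-135125489 (mm9, as all positions here). Both touched H3K4me1 and neither touched H3K27ac. The first had 27.8% of its bases in H3K4me3 and lay 2694557 bases from the nearest BioNICD1-list region.

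The distance to the nearest BioNICD1-list region was fixed above 0 by the rule and is given as a description. Over the 558 regions on chromosomes with such a region it ran from 45 to 2867108 bases, with a median of 84591 (71852 to 99451). The median was 44325 bases where a region counted as shared only if BioNICD1-list regions covered at least 50% of it, which adds regions that overlap one. A BioNICD1-list region lay within 100 bp of 4 regions, within 500 bp of 12, within 1 kb of 22, within 10 kb of 60 (10.7%) and within 100 kb of 303 (54.2%). Among open H3K4me3 regions without RBPJ, which overlap none either, the shares were 6.78% within 10 kb and 47.1% within 100 kb. These lay below the control-list-only intervals of 8.43 to 13.6% and 50.1 to 58.3%. The median distance of that set was 111198 bases (108633 to 113507). For 30 regions (5.37%) the H3K4me3 region that held most of them also held a BioNICD1-list region at another position. For the other regions it held none. Where a region bridged 2 H3K4me3 regions, only the one with more of its bases was checked. Among open H3K4me3 regions without RBPJ the share was 1.05%, but their H3K4me3 regions were shorter, with a median of 1278 bp against 2005 bp.

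**Figure D4:**
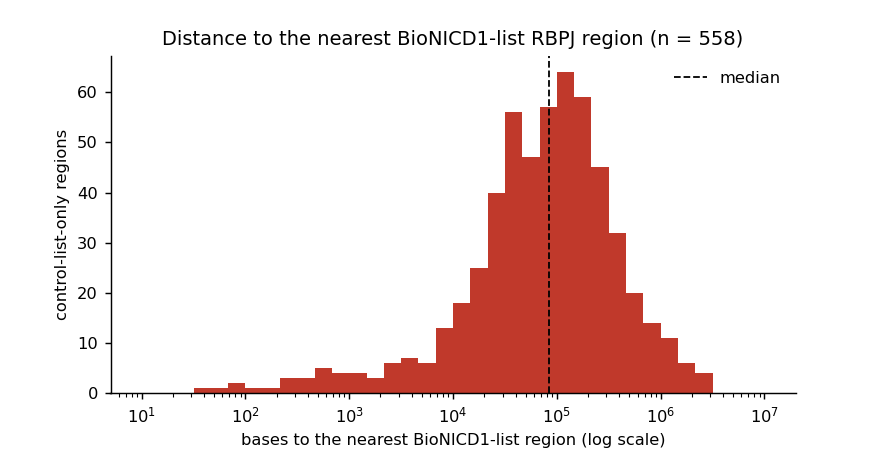
Number of control-list-only regions (y axis) by the bases between the region and the nearest BioNICD1-list RBPJ region (x axis, log scale); the dashed line is the median, 84591 bases. Most regions lie above 10 kb, and 60 of the 559 lie within it.

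Regions near the threshold of the rule show how it divides them. The control-list-only region nearest to a BioNICD1-list region was chr19:44341164-44341914, which ended 45 bases before chr19:44341960-44342120. The next was chr19:10599298-10600005, with a gap of 50 bases. Just outside, the smallest overlap that placed a region in both lists was 10 bases, at chr19:16854858-16855356. The most distant region was chr5:97540383-97540817, 2867108 bases from a BioNICD1-list region. On the side of H3K4me3, the smallest overlap was 5 bases, at chr5:151475997-151476441. The nearest control-list region that missed H3K4me3 lay at a gap of 1 base from it, at chr3:40457063-40457392.

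Few of the regions lay within 10 kb of one another. Another control-list-only region lay within 1 kb of 4 regions, within 10 kb of 10 and within 100 kb of 84. Any other control-list region lay within 10 kb of 6.26% (4.54 to 8.58%) and within 100 kb of 34.7% (30.9 to 38.7%). For regions in both lists these shares were 4.80 and 35.9%, inside those intervals. For open H3K4me3 regions without RBPJ they were 3.10 and 26.8%, below them. The closest pair was chr3:152058568-152059208 and chr3:152059242-152059699, separated by 33 bases. Only 2 H3K4me3 regions held 2 of them: chr17:29230690-29233420, of 2731 bp, and chr3:136331870-136336664, of 4795 bp.

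Chromosomes differed in how many control-list-only regions they held for their promoter-type sites, counted as ATAC regions in H3K4me3 without RBPJ plus all RBPJ regions in H3K4me3. Over the autosomes and X, the number per 100 such sites had a median of 2.12. It was lowest on chromosome 8 (0.308), followed by chromosome 13 (0.779), and highest on chromosome 3 (3.36). Chromosome 8 was also low for control-list regions with H3K4me3, with 1.93 per 100 against a median of 6.02. Regions with H3K4me3 in both lists or in the BioNICD1 list only stood there at 7.17 per 100 against a median of 12.1. As a share of the control-list regions with H3K4me3 on the chromosome, the control-list-only regions made up 16.0% (4 of 25) on chromosome 8 and 45.0% (27 of 60) on chromosome 6. The whole share of 32.8% lay outside the interval on 2 of 20 chromosomes: chromosome 3 (41.5%, 33.0 to 50.5%) and chromosome 6 (33.1 to 57.5%). Chromosome copy number in this line was not measured in these lists.

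**Figure D5:**
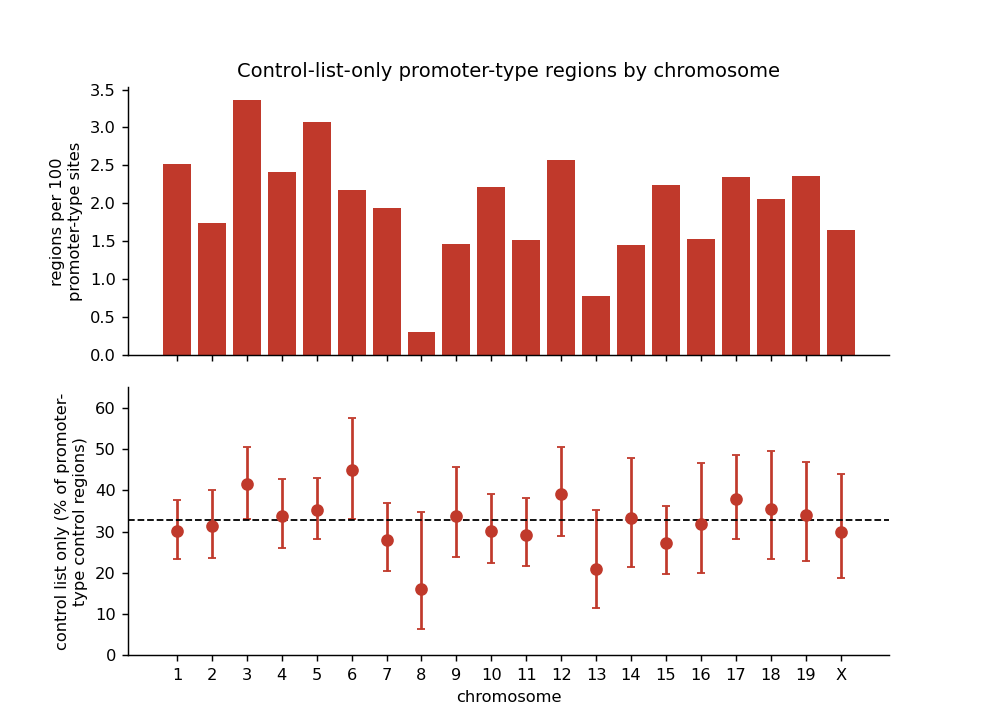
Upper panel: control-list-only regions per 100 promoter-type sites (y axis; ATAC regions in H3K4me3 without RBPJ plus RBPJ regions in H3K4me3), by chromosome (x axis). Lower panel: their share of the control-list regions with H3K4me3 on each chromosome (y axis, %), with 95% Wilson intervals and the whole share of 32.8% as a dashed line; chromosomes 3 and 6 lie above it.

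The 3 longest regions stood apart from the rest. The longest, of 6175 bp, was on the mitochondrial genome at positions 10019 to 16193, with 10.6% of its bases in H3K4me3. It also touched regions of the ATAC, H3K27ac and H3K4me1 lists, and the BioNICD1 list holds no mitochondrial region. Mitochondrial DNA is not packaged with histones, so these overlaps are not read as histone marks. The next were chr2:169954323-169960000 (5678 bp) and chr6:47785538-47790000 (4463 bp), which both end at a multiple of 10000. The next longest, chr13:96661143-96662442 (1300 bp) and chr2:128643181-128644400 (1220 bp), lay wholly inside H3K4me3. At the other end, the shortest were chr2:142728685-142728846 (162 bp), which lacked H3K27ac, and chr9:105034030-105034192 (163 bp), which had it.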

How the data were processed

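Deposited lists give start and end positions of regions on the mouse build mm9, for RBPJ in 2 conditions and for H3K4me3, H3K27ac, H3K4me1 and ATAC. The submitters' processing notes name mm9, TopHat2 2.1.1, Picard and deepTools without their roles. The peak caller and how replicates were combined are not given in the sources used here. The deposited RNA table holds raw counts per gene symbol (24391 symbols). Of its 65 columns, 18 were used, to check Rbpj and marker genes as CPM of the column total, and 47 were not used here. Of the marker lists checked, the summed level of 1 is not reported here.

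Overlaps, gaps and centres were computed in Python 3.11.15 with numpy 2.4.6 and pandas 2.3.3, with a minimum overlap of 1 bp. The steps were tested on simulated regions. Shares have 95% Wilson intervals, medians have intervals from binomial order statistics, and coverage was read every 100 bp to 5 kb on each side. Positions are 1-based. The regions, lists and measures were chosen with earlier results of these data known. Regions named are the longest and shortest, those outside ATAC, those nearest to and farthest from a BioNICD1-list region, and H3K4me3 regions that hold 2; those near the rule's threshold, the closest pair and those that end at a multiple of 10000 were added after their values were seen.

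The gene tables used here are of GRCm38: only 5.56% of their 32851 promoter windows met an H3K4me3 region at the same coordinates. The regions were therefore not matched to genes, motifs, sequences or expression, and these planned analyses were not run.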

Additional observations from a re-analysis of the deposited data

How the results depend on the processing

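Of 44 alternative values, 35 stayed within the 95% interval of the reported value or, for the number of regions, within 1.5 times it, and 9 moved. Requiring a mark over at least 50% of the region gave 76.6% for H3K27ac and 4.29% for H3K4me1; allowing it within 500 bp gave 98.0% and 60.5%; taking 200 bp around the centre gave 88.7% and 6.98%. Counting a region as shared only where BioNICD1-list regions covered 50% of it gave 733 control-list-only regions, with a median length of 511 bp and a median distance of 44325 bases. Requiring the whole region inside H3K4me3 gave 404 regions, with a median H3K4me3 length of 2226 bp. With mitochondrial regions and those that end at a multiple of 10000 removed from every list, the rule gave 555 regions; this alternative and that of 200 bp around the centre were chosen after seeing the data. No paired analysis was possible because no result comes from a test and the lists name no replicate; for the same reason no library could be left out. Alternatives for motifs and for genes of the regions were not run. The depth and signal behind the lists are unknown, so a weak region cannot be told from a strong one, and a region absent from a list may hold signal below its threshold.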

Other observations

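Region ends at multiples of 10000 were not specific to the control-list-only set. They were found in 5 regions of the control RBPJ list, 24 of the BioNICD1 list, 41 of the H3K4me3 list, 270 of the H3K27ac list, 530 of the H3K4me1 list and 2 of the ATAC list. Starts at such positions numbered 0, 0, 9, 8, 19 and 4 in the same order. In the BioNICD1 list 92.8% of the 3735 regions carried H3K4me3, against 97.4% of the control list, and 31.3% of the BioNICD1 list and 66.4% of the control list were shared with the other.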
